A study of Mus musculus with 10 samples.

Results

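The transcripts that build and break down liver glycogen were measured through 9 genes: Gyg, Ugp2, Gys2, Gbe1, Pygl, Phka2, Gsk3b, Ppp1r3b and Ppp1r3c. They were chosen by name, and all 19 probe sets with 1 of these symbols in the platform annotation were used, out of 25958 probe sets tested and 12366 genes. A probe set is a group of short probes read together as 1 value, here a log2 expression value. Livers came from 5 mutant mice, genotype DicerloxP/loxP;Afp-Cre+, and from 5 control mice, with 1 array an animal. Afp-Cre is a recombinase driven by the alpha-fetoprotein gene, which is active in liver cell precursors before birth, so loss of Dicer1, the enzyme that cuts precursors into mature microRNAs, began before birth and is not expected in all cell types of the organ. All animals were 28 days old, of mixed strain, and had gone without food for 5 hours. The labels do not give the genotype of the controls, nor the sex or litter of any animal.

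Glycogen is a branched glucose polymer that the liver stores after meals and releases as glucose between them. Glycogenin primes each particle, UDP-glucose pyrophosphorylase makes the activated glucose and glycogen synthase extends the chains. The branching enzyme makes the branch points, while glycogen phosphorylase removes glucose from the chain ends. Phosphorylation sets the balance: phosphorylase kinase switches phosphorylase on, glycogen synthase kinase 3 switches synthase off, and protein phosphatase 1 reverses both when a targeting subunit brings it to the particle. Much of this control acts on the proteins and cannot be seen in transcript levels.

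Dicer1 differed by -1.03 (SE 0.07, adjusted p = 0.000678) on the brighter of its 2 probe sets and by -2.31 (SE 0.10, adjusted p = 4.1e-05) on the other. All 5 mutant livers lay below all 5 control livers on both. Whether either probe set covers the floxed part of the gene was not examined. Of 7 measured hepatocyte markers, 0 were called and the median difference was -0.07. Of 8 Kupffer cell and macrophage markers, 4 were higher in mutant livers, with a summed level of 14.09 to 14.60 in mutant livers and 13.27 to 14.04 in control livers (log2 of the sum). Of 7 stellate cell and fibroblast markers, 4 were higher, with a summed level of 14.45 to 15.07 in mutant livers and 14.06 to 14.27 in control livers. Of 6 endothelial cell markers, 1 was lower and the median difference was -0.14, with a summed level of 11.36 to 11.70 in mutant livers and 11.57 to 11.996 in control livers. The lower one was Lyve1, which differed by -0.95 (adjusted p = 0.0235), with groups apart. None of these markers lay below the 25th percentile of all values, 3.60, on all arrays. The part of these cells in the results below was not tested.

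Of the 9 glycogen genes, 1 rose in mutant livers, the phosphorylase kinase subunit gene Phka2, and 1 fell, the branching enzyme gene Gbe1. The other 7 did not pass an adjusted p under 0.05. Among all genes, 7.29% were higher and 9.56% lower by the same rule (16.8% in either direction), so 1 of 9 each way is close to the background. Of the 19 probe sets, 2 were called, against 13.2% of all probe sets. Before adjustment, 6 of the 9 genes had a limma p under 0.05, a larger share than the 4328 of 12366 over all genes. Whether these shares differ was not tested. The median difference of the 9 genes was -0.22 on the log2 scale, beside -0.01 over all genes. The differences farthest from 0 were those of both phosphatase-targeting subunit genes, Ppp1r3c and Ppp1r3b, which were not called by this rule. Levels come from whole liver, where fewer cells of a type and less RNA per cell cannot be told apart. Mutant replicate 5 stood apart from the other mutants on the first principal component of the arrays, their main axis of variation. It lay at -15.4 there, the other mutants at 33.4 to 62.2 and the controls at -45.8 to -25.6. A call gained without mutant replicate 5 thus need not be particular to the gene named.

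**Figure D1:**
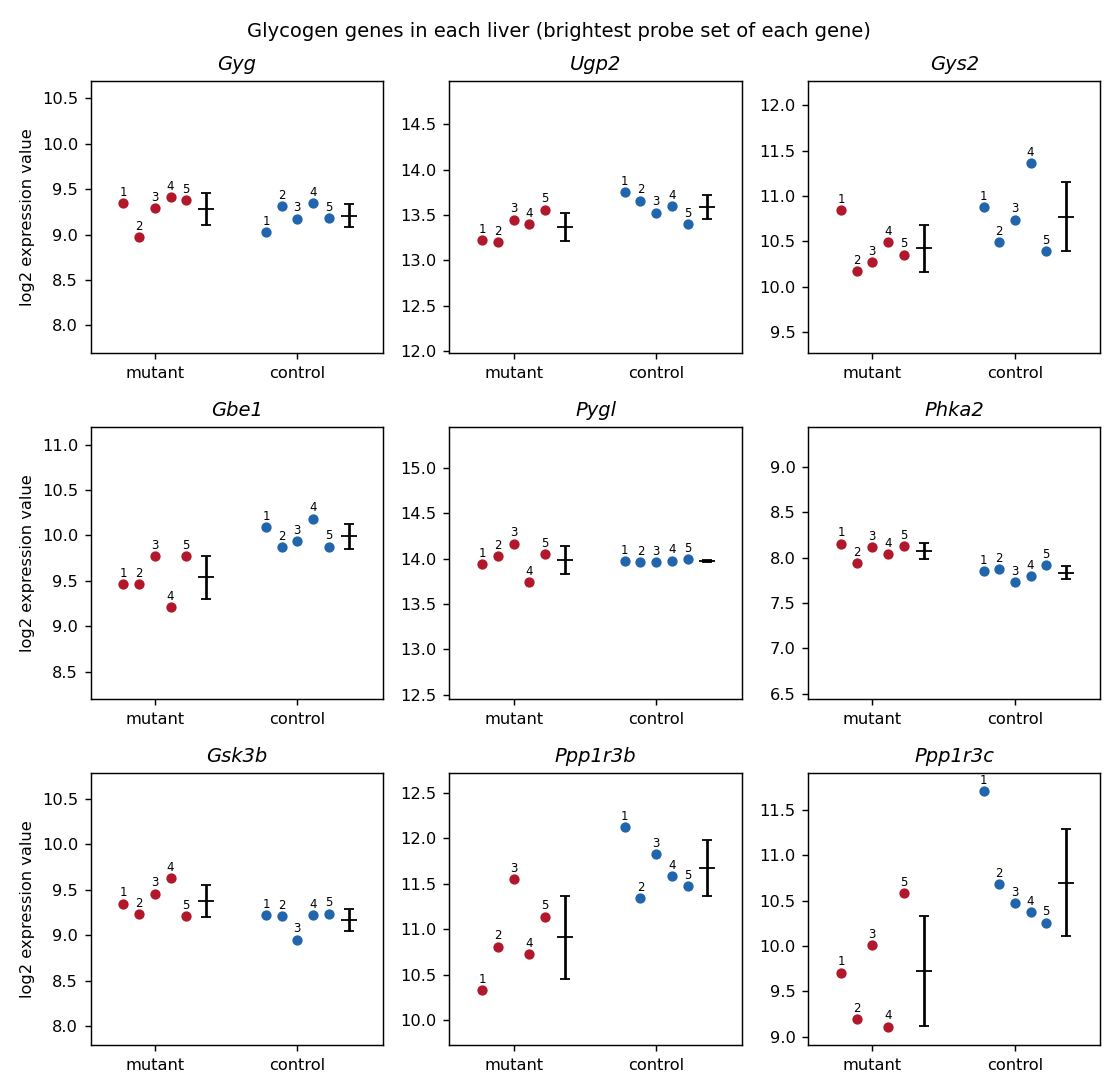
Log2 expression value (y axis, 3 units high in every panel) of the brightest probe set of each glycogen gene in 5 mutant livers (red, left) and 5 control livers (blue, right). Points carry the replicate number, and black bars are the mean ± SD. The groups stand apart for Gbe1 and Phka2, and Ppp1r3b and Ppp1r3c have the widest spread within the mutant group.

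The windows around the transcription starts of Gbe1, Phka2 and Ppp1r3c are shown because the first 2 were called and the third had the largest difference. They are RefSeq windows on assembly GRCm38.p6 that run from 250 bases before to 50 bases after the start, written 5′ to 3′ along the gene. The whole Phka2 window lies inside the annotated gene, which begins at position 160501904, so the start used there is not the first base of the gene. The table held 7 of the 9 genes, without Gys2 and Ppp1r3b. Capitals mark matches to 5 motifs, each searched on both strands. The first is the E-box, CACGTG. Hypoxia response sites have 2 cores, of which ACGTG also lies inside the E-box while the other, GCGTG, does not. The others are a forkhead site, read here as GTAAACA, and a cAMP response element, read as TGACGTCA.
Gbe1 (chr16:70313699-70313998, plus strand): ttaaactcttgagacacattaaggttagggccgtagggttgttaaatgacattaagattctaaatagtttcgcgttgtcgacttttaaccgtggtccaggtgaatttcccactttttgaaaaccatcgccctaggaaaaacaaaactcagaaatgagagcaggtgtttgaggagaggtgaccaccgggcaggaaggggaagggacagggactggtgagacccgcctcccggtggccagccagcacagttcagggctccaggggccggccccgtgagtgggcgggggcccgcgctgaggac
Phka2 (chrX:160501912-160502211, plus strand): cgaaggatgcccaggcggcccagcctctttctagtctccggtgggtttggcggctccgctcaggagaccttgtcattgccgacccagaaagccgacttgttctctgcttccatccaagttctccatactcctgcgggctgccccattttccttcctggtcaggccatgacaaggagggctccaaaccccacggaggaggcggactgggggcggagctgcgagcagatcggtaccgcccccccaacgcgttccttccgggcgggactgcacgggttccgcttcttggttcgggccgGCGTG
Ppp1r3c (chr19:36736555-36736854, minus strand): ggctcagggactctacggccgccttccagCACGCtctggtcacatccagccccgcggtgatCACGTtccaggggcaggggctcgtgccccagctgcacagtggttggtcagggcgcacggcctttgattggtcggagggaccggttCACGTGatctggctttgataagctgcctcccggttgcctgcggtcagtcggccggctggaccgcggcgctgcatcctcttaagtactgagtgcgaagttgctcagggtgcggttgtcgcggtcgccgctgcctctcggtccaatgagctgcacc

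The Ppp1r3c window held 1 CACGTG, beginning 104 bases before the start, and 1 further ACGTG and 1 GCGTG on the opposite strand. The Gyg window also held CACGTG, 8 bases after the start. CACGTG was found in 7.15% of 32851 windows of the same length, ACGTG in 19.6% and GCGTG in 32.4%. The Phka2 window held 1 GCGTG, and the Gbe1 window none of the 5 motifs. GTAAACA and TGACGTCA, found in 3.65% and 1.79% of all windows, matched in 0 of the 7 genes. A match describes these letters only.

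Gyg encodes glycogenin, which starts a glycogen particle by adding glucose to itself. Its 2 probe sets differed by 0.07 (95% interval -0.14 to 0.28) and 0.05 (-0.18 to 0.28), with adjusted p of 0.698 and 0.846. On the first it averaged 9.28 ± 0.18 in mutant livers and 9.21 ± 0.13 in control livers (SD, n = 5 each). Mutant replicate 2 was the lowest of the 10 livers on both probe sets, at 8.97 and 8.33. Without it the differences were 0.15 and 0.14, while without control replicate 1 the first was 0.03 and without control replicate 5 the second was near 0 (0.00026), and none was called.

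Ugp2 encodes the enzyme that makes UDP-glucose, the substrate of glycogen synthase. Its 5 probe sets differed by -0.22, -0.25, -0.18, -0.18 and -0.23, all in the same direction, and 0 were called (adjusted p from 0.135 to 0.508). The brightest stood at 13.22, 13.20, 13.45, 13.40 and 13.56 in mutant livers, against 13.75, 13.66, 13.53, 13.60 and 13.40 in control livers. All 5 mutants lay below the control mean there, but the groups overlapped. Mutant replicate 2 was the lowest of all 10 livers on all 5 probe sets, and mutant replicate 5 was the highest mutant on all 5. These probe sets report 1 gene and are not independent. Without mutant replicate 5 the difference of the brightest was -0.27, and 1 of the other probe sets, at -0.32, passed with an adjusted p of 0.0399. Without mutant replicate 2 the brightest was at -0.18, and the last 2 probe sets moved to -0.05 and -0.11, none of them called.

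Gys2 encodes the liver form of glycogen synthase, the enzyme that extends the chains. It stood at 10.84, 10.17, 10.27, 10.49 and 10.36 in mutant livers, against 10.88, 10.49, 10.74, 11.36 and 10.40 in control livers. Of the mutants, 3 lay below the lowest control, while mutant replicate 1 lay between the second and the third highest control, and the highest value was that of control replicate 4. The difference was -0.35 (SE 0.19, 95% interval -0.78 to 0.09, adjusted p = 0.279). It was -0.20 without control replicate 4 and -0.45 without mutant replicate 1, and it was not called in any fit that left out 1 array.

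Gbe1 encodes the branching enzyme, which makes the branch points that keep glycogen soluble. It stood at 9.47, 9.46, 9.77, 9.21 and 9.77 in mutant livers, against 10.09, 9.87, 9.94, 10.18 and 9.88 in control livers. Every mutant lay below every control, a separation in this direction that 6.99% of all genes showed. The difference was -0.46 (SE 0.12, 95% interval -0.72 to -0.19, adjusted p = 0.0366), a mutant over control ratio of 0.730 on the linear scale. The call was lost without any 1 control (adjusted p from 0.0537 to 0.0804) and without mutant replicate 1, 2 or 4 (0.0790, 0.0804 and 0.0649). It held without mutant replicate 3 or 5, at 0.0415 and 0.0163. Across these 10 fits the difference ran from -0.51 to -0.37.

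**Figure D2:**
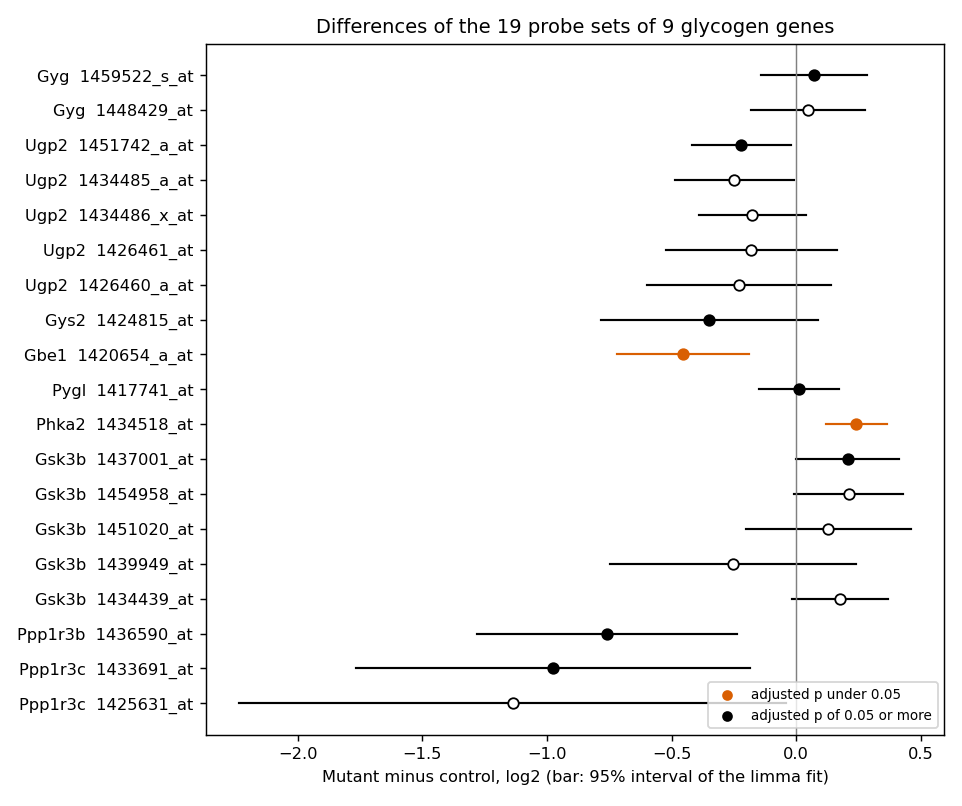
Mutant minus control difference on the log2 scale (x axis) for each of the 19 probe sets of the 9 genes (rows), with the 95% interval of the limma fit. Filled points are the brightest probe set of a gene and open points the others, and orange marks an adjusted p under 0.05. The 5 probe sets of Ugp2 and both of Ppp1r3c lie left of 0, while 1 of the 5 of Gsk3b lies apart from its other 4.

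Pygl encodes the liver phosphorylase that releases glucose from glycogen. It stood at 13.94, 14.03, 14.16, 13.74 and 14.05 in mutant livers, against 13.97, 13.96, 13.96, 13.98 and 14.00 in control livers. The means did not separate, with a difference of 0.01 (SE 0.07, 95% interval -0.15 to 0.17, adjusted p = 0.970). The spread did look unlike: mutant values covered 0.425 and control values 0.0327 on the log2 scale, with SDs of 0.16 and 0.01 (n = 5 each). Of the mutants, 2 lay below and 3 above all controls. The difference in spread was not tested, and the fit assumes 1 spread for both groups.

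Phosphorylase kinase, which activates phosphorylase, has alpha, beta and gamma subunits beside calmodulin. Phka2, the liver alpha subunit, stood at 8.15, 7.94, 8.12, 8.04 and 8.13 in mutant livers, against 7.85, 7.87, 7.73, 7.80 and 7.92 in control livers. Every mutant lay above every control, though mutant replicate 2 cleared control replicate 5 by little, and 6.17% of all genes separated in this direction. The difference was 0.24 (SE 0.05, 95% interval 0.12 to 0.36, adjusted p = 0.0235), a ratio of 1.18. The call was lost without control replicate 3 or 4 (adjusted p = 0.0531 and 0.0573), without mutant replicate 1 or 3 (0.0548 and 0.0538), with arrays centred on their medians (0.0532) and with the trend and robust options of eBayes (0.0615).

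The other subunits had differences of both signs. Phkb, the beta subunit, fell: it stood at 8.86, 8.50, 8.72, 8.84 and 8.95 in mutant livers, against 9.004, 9.19, 9.08, 9.30 and 9.68 in control livers. The groups stood apart, with a difference of -0.48 (SE 0.13, adjusted p = 0.0471), and among the 10 fits that left out 1 array it stayed called in 2, those without control replicate 1 and without mutant replicate 5, while the adjusted p reached 0.0978 in the rest. Phkg2, the catalytic subunit of liver, differed by -0.49 (SE 0.22, adjusted p = 0.171), where mutant replicate 5, at 8.44, lay among the controls of 8.04 to 8.70 and the other 4 mutants ran from 7.37 to 7.96. Without mutant replicate 5, Phkg2 was called at -0.65 (adjusted p = 0.0386). It was -0.38 without mutant replicate 1 or without mutant replicate 2 (adjusted p = 0.317 and 0.321). Phka1, the muscle alpha subunit, differed by 0.21 (SE 0.11, adjusted p = 0.244). Whether the subunits differ from each other was not tested.

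Gsk3b encodes glycogen synthase kinase 3 beta, which inhibits glycogen synthase and has many other substrates. Of its 5 probe sets, 4 differed by 0.13 to 0.21 and 1 by -0.25, with adjusted p from 0.174 to 0.644. The brightest averaged 9.38 ± 0.17 in mutant livers and 9.17 ± 0.12 in control livers (SD, n = 5 each), a difference of 0.21 (SE 0.09, adjusted p = 0.174). On it 3 mutants lay above all controls, and control replicate 3, at 8.95, was the lowest liver. The probe set of the other sign stood at 4.14 to 5.40 in mutant livers and 4.66 to 5.31 in control livers, and its difference ran from -0.40 to -0.08 without any 1 array. The related kinase Gsk3a differed by 0.07 (SE 0.04, adjusted p = 0.365).

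Ppp1r3b encodes the main glycogen-targeting subunit of protein phosphatase 1 in liver, which brings the phosphatase to synthase and phosphorylase. It stood at 10.33, 10.81, 11.55, 10.72 and 11.14 in mutant livers, against 12.12, 11.34, 11.83, 11.58 and 11.47 in control livers. Of the mutants, 4 lay below all controls, and mutant replicate 3 lay within the control range. The difference was -0.76 (SE 0.23, 95% interval -1.28 to -0.24), a ratio of 0.590. It did not pass when p-values were adjusted over all probe sets (adjusted p = 0.0599) and passed when they were adjusted over 1 probe set a gene (adjusted p = 0.0457). It also passed with dim probe sets left out (0.0411), with arrays centred on their medians (0.0481) and without mutant replicate 3 (-0.92, adjusted p = 0.0374). Without any other array the adjusted p ran from 0.0535 to 0.128.

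Ppp1r3c encodes a further targeting subunit, found in many tissues, that also binds synthase and phosphorylase. It stood at 9.71, 9.196, 10.01, 9.11 and 10.59 in mutant livers, against 11.71, 10.68, 10.47, 10.37 and 10.26 in control livers. Here 4 mutants lay below all controls and mutant replicate 5 lay within the control range, 0.11 below the control mean. Control replicate 1 stood well above the other controls. The difference was -0.97 (SE 0.35, 95% interval -1.77 to -0.18, adjusted p = 0.101), a ratio of 0.509, and 4.50% of genes had a larger absolute difference. Without mutant replicate 5 it was -1.19 and was called (adjusted p = 0.0335). Without control replicate 1 it was -0.72 (adjusted p = 0.159).

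The second probe set of Ppp1r3c stood at 5.61, 5.56, 6.31, 5.05 and 6.99 in mutant livers, against 8.58, 6.62, 7.08, 6.47 and 6.44 in control livers. It ordered the extremes alike, with mutant replicate 4 the lowest liver, mutant replicate 5 the highest mutant and control replicate 1 the highest of all. The difference was -1.14 (SE 0.49, adjusted p = 0.160), and it moved to -0.75 without control replicate 1, by more than 1.5 times. Control replicate 1 was also the highest liver for Ppp1r3b. Mutant replicates 3 and 5 stood above the other mutants for both genes. They were at 11.55 and 11.14 for Ppp1r3b, and at 10.01 and 10.59 on the brighter Ppp1r3c probe set. The mutant within the control range was replicate 3 for Ppp1r3b and replicate 5 for Ppp1r3c.

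**Figure D3:**
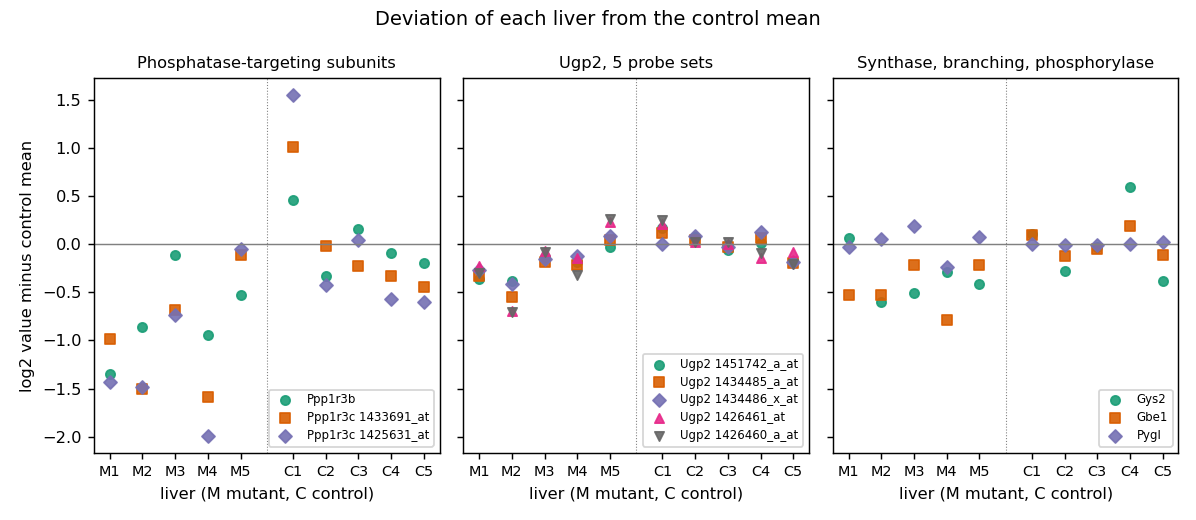
Log2 value minus the control mean (y axis) in each mutant (M1 to M5) and control (C1 to C5) liver, for the phosphatase-targeting subunits, the 5 probe sets of Ugp2, and the enzymes Gys2, Gbe1 and Pygl. M1, M2 and M4 lie low for both targeting subunits, M5 lies near 0 for Ppp1r3c, and M2 is lowest on each Ugp2 probe set.

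Other genes of the pathway were read from 5 lists: 32 of 41 listed genes were measured, of which 3 rose, 2 fell and 27 were not called. These shares, 9.38% and 6.25%, lie near those of all genes, and the median difference was 0.02, beside -0.01 over all genes. Without mutant replicate 5, 5 rose and 4 fell. Over all genes, that fit called 1227 higher and 1991 lower, beside 901 and 1182 in the main fit. Without any 1 other array, at most 1 fell.

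Among the other subunits of protein phosphatase 1, 1 of 7 rose and 0 fell, beside 7.29% higher and 9.56% lower among all genes. Ppp1cc, a catalytic subunit, stood at 12.77, 12.86, 12.87, 12.94 and 12.70 in mutant livers, against 12.42, 12.48, 12.32, 12.51 and 12.28 in control livers. The groups did not overlap, and the difference of 0.42 (SE 0.06, adjusted p = 0.0073) was still called when any 1 array was left out. Its other probe set rose by 0.54 (SE 0.09, adjusted p = 0.010008). The catalytic subunit gene Ppp1cb differed by 0.14 (SE 0.07, adjusted p = 0.236). Ppp1r3g, a targeting subunit of liver, stood at 5.92, 6.94, 5.85, 9.35 and 3.22 in mutant livers, against 4.59, 1.45, 3.56, 5.21 and 4.43 in control livers. The 4 mutants other than replicate 5 lay above all controls, and mutant replicate 5 lay below 4 of them. Its difference of 2.41 (SE 1.098, adjusted p = 0.186) was the largest of the pathway genes. The difference was called without mutant replicate 5, at 3.17 (adjusted p = 0.0473), and was 1.64 without mutant replicate 4 (adjusted p = 0.334). With 3 arrays below 3.60, its size depends on how background was treated. The targeting subunit gene Ppp1r3e differed by -0.26 (SE 0.15, adjusted p = 0.291) on its brighter probe set, and by -0.16 there without control replicate 4. Its other probe set, with 4 arrays below 3.60, differed by -1.22 (SE 0.43, adjusted p = 0.0947). Ppp1r3a and Ppp1r3d lay below 3.60 on all 10 arrays.

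Of 10 measured upstream regulators, 2 rose and 1 fell, beside 7.29% higher and 9.56% lower among all genes. Before adjustment, 6 of the 10 had a limma p under 0.05, beside 4328 of 12366 over all genes, and this was not tested further. Prkacb, a catalytic subunit of the cAMP-dependent kinase that relays glucagon, averaged 10.26 ± 0.18 in mutant livers and 9.85 ± 0.07 in control livers (SD, n = 5 each), a difference of 0.41 (SE 0.08, adjusted p = 0.0176). The call was lost with arrays centred on their medians (adjusted p = 0.0512), and the other probe set, below 3.60 in mean in both groups, differed by -0.07. Prkaca, the sister subunit, differed by 0.41 (SE 0.12, adjusted p = 0.0538) on its brighter probe set and by 0.12 (adjusted p = 0.543) on the other. Prkaa1, a catalytic subunit of the AMP-activated kinase, rose by 0.40 (SE 0.09, adjusted p = 0.0216), and the call was lost without control replicate 4 (adjusted p = 0.05001). Prkaa2, its counterpart, differed by -0.45 (SE 0.14, adjusted p = 0.0626), with groups apart.

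Akt1, a kinase of insulin signalling, averaged 9.39 ± 0.16 in mutant livers and 9.74 ± 0.14 in control livers (SD, n = 5 each), a difference of -0.35 (SE 0.09, adjusted p = 0.0412). Its groups overlapped, and of the 10 fits that left out 1 array it was called in 2, those without control replicate 2 and without mutant replicate 5, with an adjusted p of up to 0.0898 in the rest. The other Akt1 probe set differed by -0.43 (SE 0.15, adjusted p = 0.0915) and was not called. Akt2, a related kinase, differed by -0.33 (SE 0.12, adjusted p = 0.102) on its brighter probe set, which represents the gene in the counts. Its other probe set was called lower, at -0.58 (SE 0.14, adjusted p = 0.0282), with overlapping groups. The glucagon receptor Gcgr differed by -0.17 (SE 0.09, adjusted p = 0.249).

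Of 6 measured core glycogen enzymes other than the 9 genes, and of 6 genes for glucose phosphorylation, release and transport, 0 were called by limma, with 1 in each list at an unadjusted p under 0.05. Of all 12366 genes, 4328 had an unadjusted p under 0.05 in the same fit, so 1 of 6 does not stand out. The brain form of phosphorylase, Pygb, stood at 7.83, 8.44, 7.502, 8.41 and 7.33 in mutant livers, against 6.58, 7.33, 7.38, 7.33 and 7.34 in control livers. Its difference was 0.71 (SE 0.26, adjusted p = 0.100), and it was called without mutant replicate 5, at 0.85 (adjusted p = 0.0411). Without control replicate 1 it was 0.56 (adjusted p = 0.179), and without mutant replicate 2 it was 0.58 (adjusted p = 0.200). Stbd1, a glycogen-binding protein, differed by 0.32 (SE 0.37, adjusted p = 0.649), and by 0.15 without mutant replicate 1 and 0.53 without mutant replicate 5. Slc37a4, which carries glucose 6-phosphate into the endoplasmic reticulum, differed by -0.27 (SE 0.09, adjusted p = 0.0724), with groups apart. The glucose transporter Slc2a2 differed by -0.12 (SE 0.09, adjusted p = 0.456), and the glucokinase regulator Gckr by 0.08 (SE 0.11, adjusted p = 0.725). Without any 1 array these ran from -0.17 to -0.07 and from 0.02 to 0.16.

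**Figure D4:**
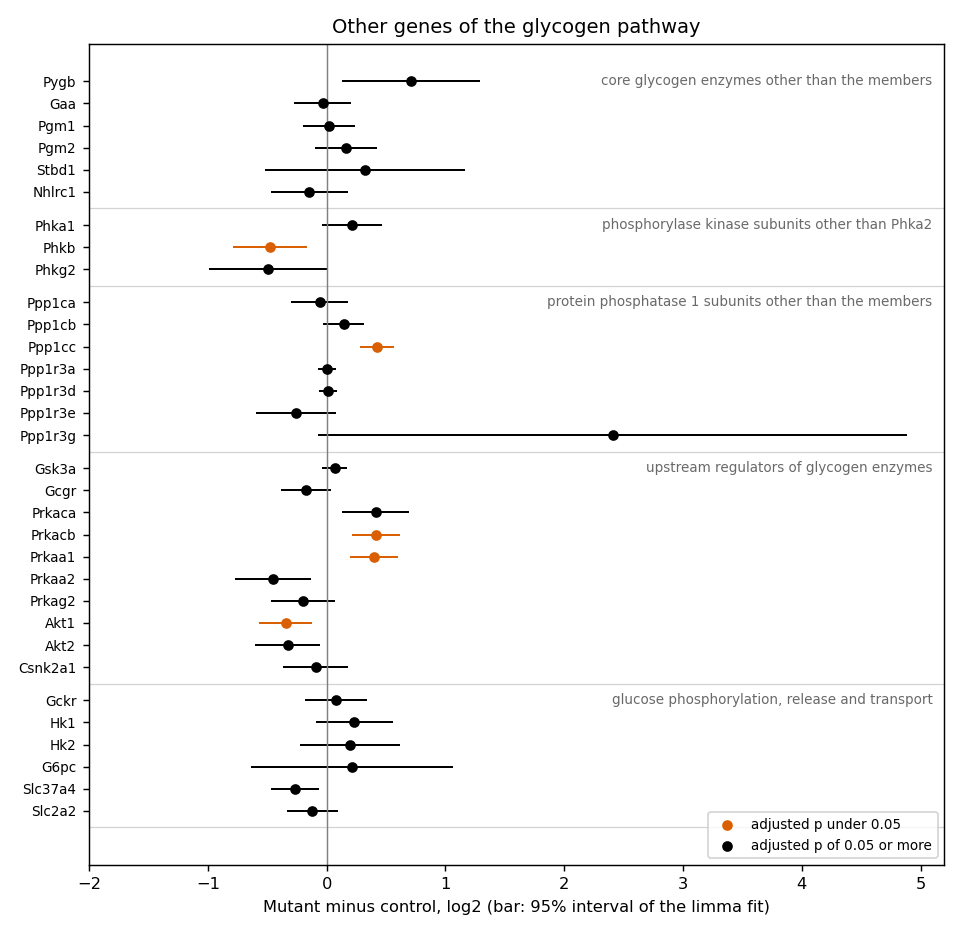
Mutant minus control difference on the log2 scale (x axis) for 32 measured pathway genes beside the 9 glycogen genes (rows, grouped by list), with the 95% interval of the limma fit and orange for an adjusted p under 0.05. The called genes are Phkb, Ppp1cc, Prkacb, Prkaa1 and Akt1, and Ppp1r3g has by far the widest interval.

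The genes whose profiles over the 10 livers lay closest to 4 of the glycogen genes were found by the root mean square difference between log2 profiles, each centred on its own mean. The closest to Gys2 were Cebpg (0.125), Gnl3 (0.158) and Wdr43 (0.167), where the profile of Gys2 itself had a root mean square deviation of 0.340. For Ppp1r3c (0.723) they were Pbld2 (0.292), Oxld1 (0.297) and Fn3k (0.314). For Ppp1r3b (0.518) they were Eif2b1 (0.222), Tm2d2 (0.233) and Ndufaf6 (0.239), and for Pygl (0.101) they were Ndufs7 (0.0341), Skp1 (0.0524) and Atp5pb (0.0534). They are the best of 7725 genes over 10 arrays, and 4 to 8 of the 12 kept their place when 1 array was left out.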

How the data were processed

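Total RNA of 10 livers was amplified and labelled with biotin for expression arrays, per the labels. The authors deposited log2 values, 1 for each probe set and array. That scale was inferred from their range (0.274 to 16.7). How the authors corrected background, summarised probes and normalised arrays is not given in the sources read for this work. Array medians run from 6.40 to 6.67. Precision is limited by 5 arrays in each group. Of 25995 probe sets, 37 controls were left out. Symbols came from the platform annotation and were checked by gene identifier against GRCm38.p6 (0 changed, 61 without a match); 21613 probe sets had 1 symbol, 638 several and 3707 none. A gene was represented by its probe set with the highest mean.

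Mutant minus control was tested two-sided in R 4.3.3 with limma 3.58.1 (lmFit, then eBayes) on all 25958 probe sets, with Benjamini-Hochberg adjustment over all of them and a threshold of 0.05. Every adjusted p comes from this fit unless another setting is named, and SE is its moderated standard error. Labels name separate livers, and no batch is given. The same numbers in both groups are not shown to pair the livers, so the main fit used no block. The fit was tested on simulated data with known differences. The named genes are the 9 glycogen genes, Dicer1, genes of the 5 pathway lists, and the 3 closest profiles of 4 genes among those at or above the median of all probe sets (6.55). The genes, lists and motifs were chosen with earlier results of these data known. Alternatives were other scalings, probe set rules, a filter on dim probe sets (both group means below the 25th percentile), eBayes options, array weights, a replicate block and leaving out each array. Protein sequences were not used here.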

Additional observations from a re-analysis of the deposited data

Results flagged for a closer look

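In 8 of 106 groups of 5 livers (7.55%), 1 liver lay far from the other 4, with a gap to its neighbour above 0.71 of the group's whole range; chance gives about 5%. Among the 9 glycogen genes these were mutant replicate 2 on both Gyg probe sets, at 8.97 (others 9.29 to 9.41) and 8.33 (others 8.72 to 8.86), and control replicate 3 on the brightest Gsk3b probe set, at 8.95 (others 9.21 to 9.24). Among the other pathway genes they were control replicate 1 for Pygb, at 6.58 (others 7.33 to 7.38), and for Slc37a4, at 12.81 (others 12.35 to 12.47), control replicate 4 for Pgm1, at 11.34 (others 11.45 to 11.48), mutant replicate 1 for Ppp1r3e, at 4.17 (others 4.31 to 4.37), and control replicate 5 for Gsk3a, at 8.04 (others 8.20 to 8.23).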

How the results depend on the processing

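The number of glycogen genes that rose was 1 in the main setting and 0 with arrays centred on their medians, with the trend and robust options or with the replicate block, and 0 to 1 without any 1 array. The number that fell was 1 in the main setting, 2 with arrays centred on their medians, with dim probe sets left out or with 1 probe set a gene, and 0 with the replicate block, and it ran from 0 to 2 without any 1 array. The replicate block gave Gbe1 an adjusted p of 0.103, Phka2 0.0678 and Prkaa1 0.0641, and Phkg2 passed with it (0.0408). Same-numbered livers deviated from their group means with correlations between -0.18 and 0.15, and 1 of 5 mutants correlated best with its own number, so the numbers are not shown to pair the livers. For the other pathway genes, 2 to 5 rose and 0 to 4 fell without any 1 array. Over all genes, 901 were higher and 1182 lower; 533 were higher with the replicate block, and without any 1 array 468 to 1227 were higher and 487 to 1991 lower. The sign turned for Pygl without mutant replicate 2 (-9.5e-05), 3 (-0.034) or 5 (-0.0053), among values of -0.034 to 0.073 over the fits without 1 array, and for Gsk3b with its most variable probe set (-0.25), none of them called. Gyg, Ugp2, Gys2, Gbe1, Phka2, Ppp1r3b and Ppp1r3c kept their sign under all 19 alternatives for each. The causes were not tested. Values near or below 3.60 depend most on background treatment, and the arrays give no depth.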

Other observations

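Csnk2a1, a catalytic subunit of casein kinase 2, which primes glycogen synthase for further phosphorylation, had 6 probe sets that did not move together. The brightest averaged 9.46 ± 0.24 in mutant livers and 9.56 ± 0.14 in control livers (SD, n = 5 each), a difference of -0.09 (adjusted p = 0.677 by limma). The one with the lowest mean averaged 4.65 ± 0.26 in mutant livers and 5.61 ± 0.14 in control livers (SD, n = 5 each), with a difference of -0.96 (SE 0.13) that was called at an adjusted p of 0.00579. The remaining 4 ran from -0.20 to 0.28 and were not called. Which transcripts these probe sets report was not examined, so no direction is given for the gene.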
